A study of Mus musculus with 6 samples.

Results

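The lipoprotein lipase system of white fat was read from mouse epididymal fat arrays through 10 genes chosen by symbol: Lpl, Gpihbp1, Lmf1, Sel1l, Angptl4, Vldlr, Cd36, Slc27a1, Fabp4 and Fabp5. The table held 29 probe sets of these 10 genes among 34945 probe sets with 1 gene symbol, which stand for 18193 genes, and 27 of the 29 were bright enough to enter the test, which covered 23142 probe sets in all. All mice were male C57BL/6, aged 16 weeks, and fed chow with free access to food. Control mice were FTO flox/flox, and AFO mice carried the same floxed alleles with Adiponectin-cre, so floxed Fto is shared by both groups. The adiponectin sequence drives Cre in fat cells, whereas each array read the whole pad, with its vessels, immune cells and any neighbouring tissue. Each group had 3 arrays, each from its own RNA pool, and how many mice made a pool is not given in the sources used here. Pools are numbered 1 to 3 in each group, as the replicates are. The labels do not say that a control and an AFO pool of equal number belong together. A difference within a pool below means AFO minus control at equal number. The values are log2 levels, so a difference of 1 means 2 times the level.

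Lipoprotein lipase is made by fat cells, folds in the endoplasmic reticulum with the help of Lmf1 and of the Sel1l complex, and is carried by Gpihbp1 to the inner face of capillaries, where it splits the triglyceride of circulating lipoproteins. Angptl4 is a secreted inhibitor that inactivates the lipase, is made in large amounts by fat, and is known to be higher in fasting. The released fatty acids enter fat cells through Cd36 and Slc27a1 and bind Fabp4 and Fabp5, while Vldlr takes up or holds triglyceride-rich particles. Much of the control of this system is known to act on protein, which these transcript levels do not show.

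The floxed gene and the tissue were checked first. The tested Fto probe set read 6.11, 6.20 and 5.59 in control pools 1, 2 and 3 and 6.13, 5.45 and 5.95 in the AFO pools, so the groups overlapped, and the position of its probes relative to the floxed part was not compared. Adipoq, the adiponectin gene that marks fat cells, read between 13.14 and 13.43 on the 6 arrays, near the top of the scale. The pool 2 arrays of both groups stood apart: the mean of the 10 skeletal muscle markers was 9.57 in control pool 2 and 11.96 in AFO pool 2, and that of the 6 mesothelial markers was 5.47 and 4.74 there against 8.13 to 8.33 on the other arrays. The muscle markers were also high in AFO pool 1, at 9.71, against 4.96 to 5.33 in control pools 1 and 3 and AFO pool 3. The 10 endothelial markers had a mean of 8.68 to 9.33 in control and 8.44 to 9.18 in AFO fat, and the 8 tested adipocyte markers 10.88 to 11.11 and 10.54 to 11.12. AFO pool 3 had the highest 3' minus 5' signal of the Actb control probes, 1.33 against 0.73 to 0.95 elsewhere, and of the Gapdh control probes, 0.38 against -0.12 to 0.19.

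Setting AFO against control fat asks whether transcripts of this system differ when Cre acts on Fto in fat cells. None of the 27 tested probe sets passed an adjusted p of 0.05 in limma, where 0% of all tested probe sets did. At an unadjusted p under 0.05 stood 1 of the 27, a Fabp4 probe set, where 0.907% of all tested probe sets did (210 of 23142). With pool number as a block, 0 of the 27 passed (smallest limma adjusted p 0.996698) and 2 of all 23142, which is 0.00864%, and 1 of the 27 had an unadjusted p under 0.05 beside 3.37% of all. Without both pool 2 arrays 0 of the 27 passed, beside 0.372% of all, or 0.549% with the block as well. For none of the 27 did the AFO values lie all below the control values (1.65% of all tested probe sets) or all above them (1.68%), so 0 had groups that did not overlap, beside 3.33% of all. By their means 23 of the 27 probe sets were lower in AFO fat, with a median of -0.15 log2 units, where 58% of all tested probe sets were lower with a median of -0.028. Set relative to the adipocyte markers, which moves every difference up by 0.23, 7 of the 27 were lower beside 9.28% of all tested probe sets, and relative to the endothelial markers 11 were, beside 14.1% of all. Without AFO pool 2 the count was 15 of 27 beside 49.5% of all, with a median of -0.010, and without both pool 2 arrays it was 21, with a median of -0.14. In bulk fat, fewer fat cells and less RNA per fat cell cannot be told apart.

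**Figure D1:**
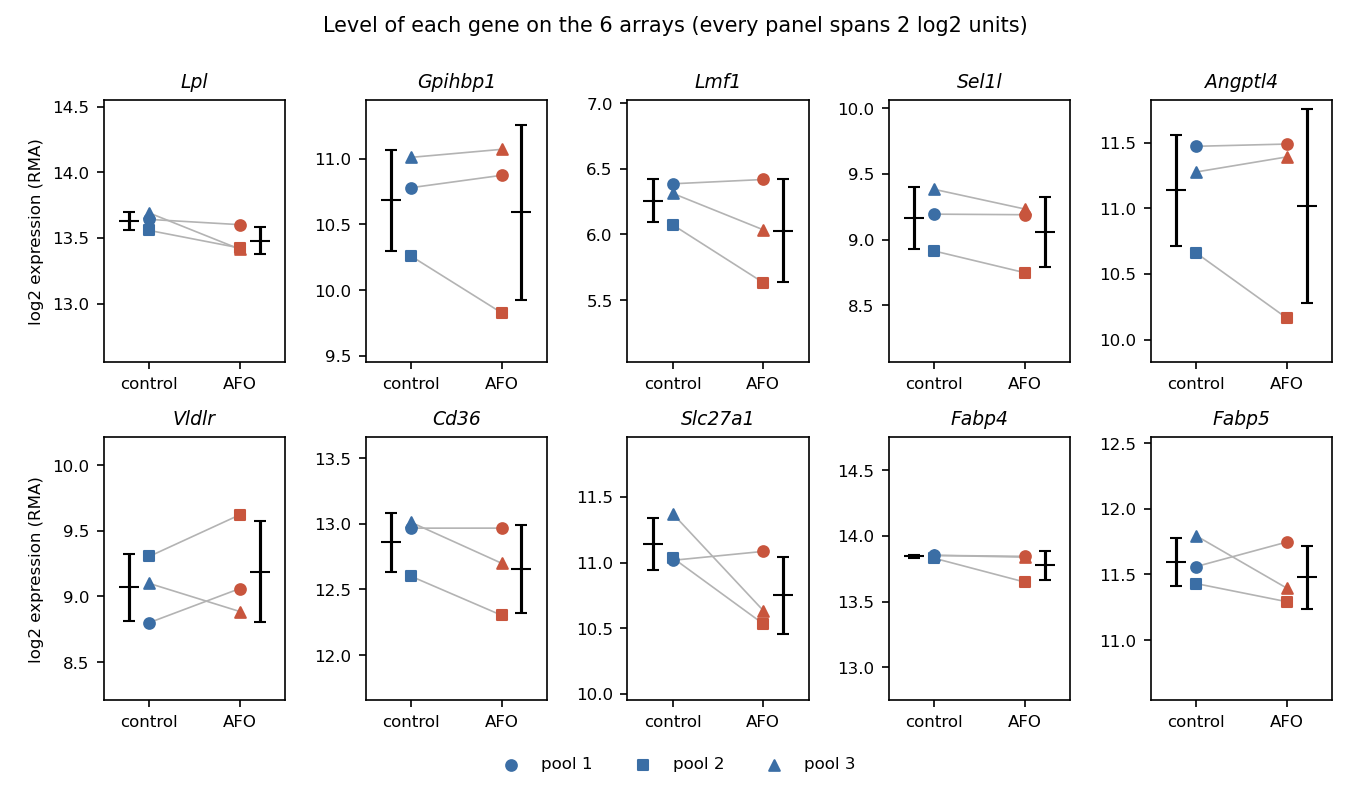
Log2 expression of the main probe set of each of the 10 genes (the one with the highest mean over the 6 arrays) in control (blue) and AFO (red) fat. Symbols mark pools 1 to 3, grey lines join equal pool numbers, black bars give mean and SD (n = 3), and every panel spans the same height. Pool 2 is lowest in both groups for Gpihbp1, Lmf1, Sel1l, Angptl4, Cd36, Fabp4 and Fabp5 and highest for Vldlr, and the control and AFO values overlap in all 10 panels.

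The lipase itself varied little. The main Lpl probe set (Entrez gene 16956) read 13.64, 13.56 and 13.69 in control pools 1, 2 and 3 and 13.60, 13.42 and 13.41 in AFO. The AFO value was the lower within each pool, although AFO pool 1 lay among the control values, so the groups overlapped. The means were 13.63 ± 0.07 in control and 13.48 ± 0.11 in AFO fat (SD, n = 3), a difference of -0.15 (SE 0.10, 95% interval from -0.40 to 0.10, limma adjusted p 0.999971). The interval reaches from 0.760 to 1.07 times the control level. This probe set ranked between 3 and 6 on every array by brightness, and quantile normalisation holds the brightest values of all arrays at nearly the same level, so a difference there can be understated. When the values were quantile normalised again, the difference of this probe set was -0.059 (SE 0.10). The second Lpl probe set read 12.92, 12.73 and 13.12 in control and 12.98, 12.33 and 12.60 in AFO pools 1, 2 and 3. Its difference was -0.29 (SE 0.19, interval from 0.597 to 1.13 times the control level), and within pools it was 0.06, -0.40 and -0.52.

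Gpihbp1, the endothelial protein that anchors the lipase in capillaries, was read by 1 probe set (Entrez gene 68453). It was at 10.78, 10.26 and 11.01 in control pools 1, 2 and 3 and at 10.87, 9.83 and 11.07 in AFO. The low values were those of pool 2 in both groups, and elsewhere the AFO value was slightly the higher. The difference was -0.09 (SE 0.36, 95% interval from -0.95 to 0.76), and without both pool 2 arrays it was 0.08 (SE 0.17). Pool number held 91.7% of the variation of Gpihbp1 over the 6 arrays and genotype 1.06%. The endothelial marker mean was also lowest in the pool 2 arrays, at 8.68 in control and 8.44 in AFO, and relative to these markers the Gpihbp1 difference was 0.09. The part of vessel content in the Gpihbp1 values was not tested.

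The maturation factors were read by 1 tested probe set for Lmf1 and 5 for Sel1l. Lmf1, a membrane protein that lets the lipase fold into its active form, read 6.39, 6.07 and 6.31 in control and 6.42, 5.63 and 6.04 in AFO pools 1, 2 and 3. The AFO values of pools 2 and 3 lay below all control values and that of pool 1 above them. The difference was -0.23 (SE 0.22), or -0.03 without AFO pool 2 and -0.42 without AFO pool 1, and a second Lmf1 probe set, too dim for the test, read between 3.33 and 3.61 on all arrays. Sel1l, the adaptor of a ubiquitin ligase complex that guards protein folding, read 9.19, 8.91 and 9.38 in control and 9.19, 8.75 and 9.23 in AFO on its main probe set. Those differences within pools were -0.0043, -0.17 and -0.15, smaller than the distance of pool 2 from the others in either group. The 4 other Sel1l probe sets had differences from -0.32 to -0.027, and all of them set AFO pool 3 below control pool 3. For 1430692_a_at that gap was -1.05, against 0.29 within both pool 1 and pool 2, and for 1425188_s_at it was -0.998, against 0.03 and 0.02. The main Sel1l probe set differed by -0.15 between the same arrays, so the size of the gap depended on the probe set. AFO pool 3 is the array with the highest 3' minus 5' signal, and the part of RNA quality in these gaps was not tested.

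Angptl4, the inhibitor, showed the widest spread among the main probe sets. It read 11.47, 10.66 and 11.28 in control pools 1, 2 and 3 and 11.49, 10.16 and 11.39 in AFO (Entrez gene 57875). Pool 2 was lowest in both groups, by 0.71 in control and 1.28 in AFO below the mean of the other pools, and the 4 remaining arrays lay within 11.28 to 11.49. The means were 11.14 ± 0.42 and 11.01 ± 0.74 (SD, n = 3), a difference of -0.12 (SE 0.39, 95% interval from -1.05 to 0.81, limma adjusted p 0.999971). On the linear scale that interval runs from 0.482 to 1.75 times the control level, so the unpaired comparison leaves both a large fall and a large rise within it. With pool number as a block the interval was -0.47 to 0.22. Within pools 1, 2 and 3 the differences were 0.02, -0.50 and 0.12, so AFO fat was the lower in 1 of 3 pools, and without both pool 2 arrays the difference was 0.07 (SE 0.15). The B cell markers averaged 8.04 in control and 8.56 in AFO pool 2 against 5.16 to 5.73 on the other arrays, and the part of other cells in the pool 2 values was not tested.

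A second Angptl4 probe set, 1453410_at, was too dim for the test. Where its probes lie on the transcript was not checked, so what it reads of Angptl4 is not known here. It read 3.86, 3.14 and 4.10 in control pools 1, 2 and 3 and 3.10, 2.38 and 3.06 in AFO. Every AFO value was below every control value, and the within-pool differences were -0.76, -0.76 and -1.04. Fitted with all probe sets and no filter, the difference was -0.85 (SE 0.29, limma adjusted p 0.999956, and 0.949426 with pool number as a block). Of the 11803 probe sets under the filter, 2.75% had all AFO values below all control values, and 12.2% were lower in AFO in 3 of 3 pools. Its mean level was at percentile 12.4 of all probe sets, where RMA values say little of a transcript's level.

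**Figure D2:**
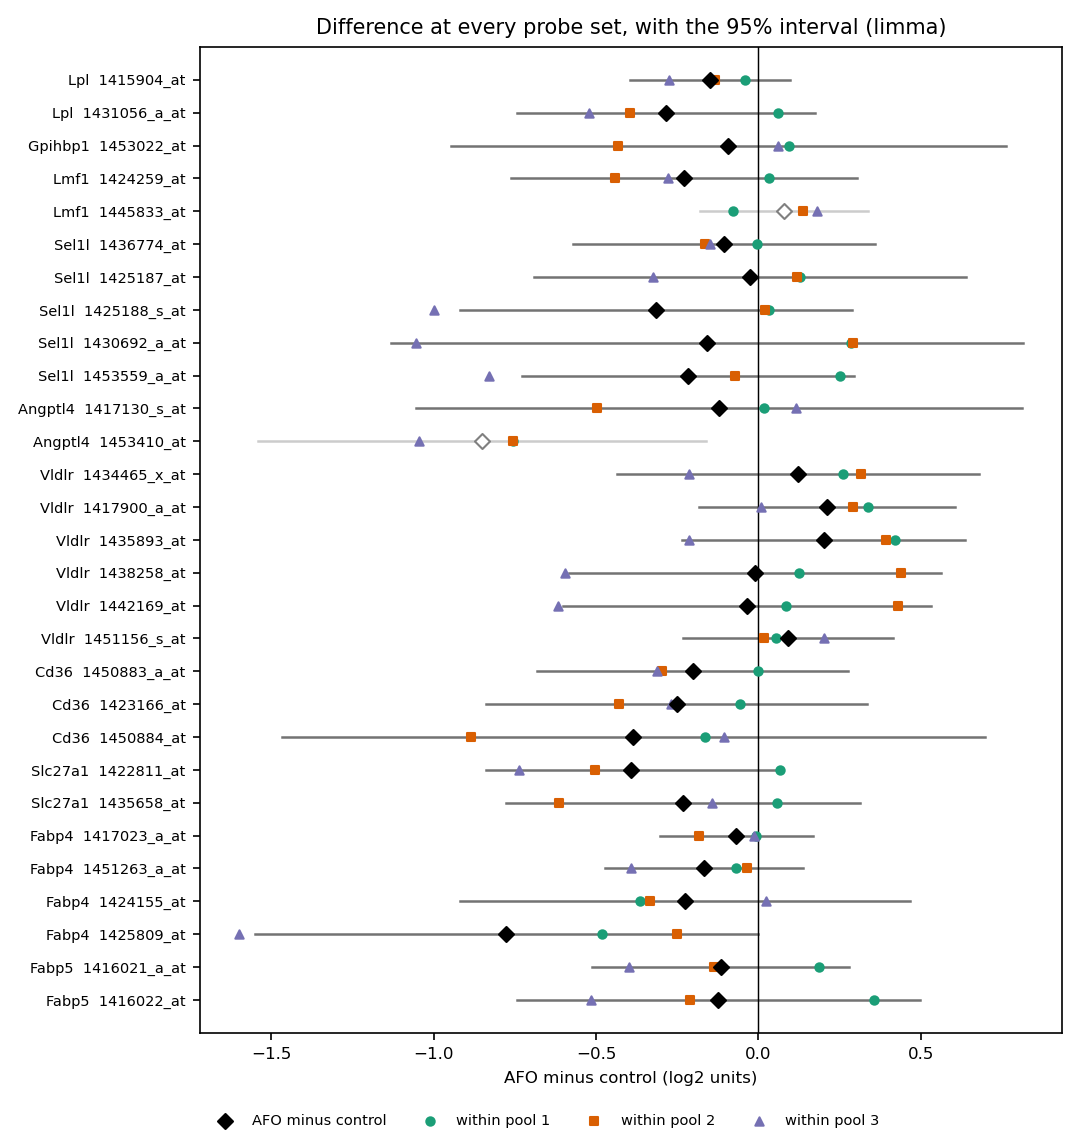
AFO minus control in log2 units at each of the 29 probe sets (diamonds) with its 95% interval from limma, and the difference within each pool (coloured symbols). Open diamonds are the 2 probe sets under the filter. Of the 27 tested, 23 lie below 0, and 26 of the 27 intervals cover 0.

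Vldlr, a receptor for very low density lipoprotein, ran the other way by its means. Its 6 probe sets differed by -0.034 to 0.21, and 4 of them were higher in AFO fat. The main probe set (Entrez gene 22359) read 8.80, 9.30 and 9.10 in control and 9.06, 9.62 and 8.89 in AFO pools 1, 2 and 3. AFO was the higher in pools 1 and 2 and the lower in pool 3, and pool 2 was highest in both groups. The difference was 0.12 (SE 0.23), and the largest of the 6, at 1417900_a_at, was 0.21 (SE 0.17, 95% interval from -0.18 to 0.61, limma adjusted p 0.999971). That probe set was higher in AFO in 3 of 3 pools, by 0.34, 0.29 and 0.0068, where 9.13% of all tested probe sets were higher in 3 of 3. Without AFO pool 2 the difference of the main probe set was -0.10. Vldlr is also expressed in skeletal muscle, whose markers were higher in AFO within pools 1 and 2, with medians of 4.34 and 2.50, and not within pool 3, at -0.17. The part of muscle in the Vldlr values was not tested.

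Cd36, a membrane protein that takes up fatty acids, was lower by its mean at all 3 probe sets. The main one (Entrez gene 12491) read 12.97, 12.60 and 13.01 in control and 12.97, 12.30 and 12.70 in AFO pools 1, 2 and 3. Pool 1 was level between the groups and AFO was the lower in pools 2 and 3. The means were 12.86 ± 0.23 and 12.66 ± 0.33 (SD, n = 3), a difference of -0.20 (SE 0.20, 95% interval from -0.68 to 0.28). The other 2 Cd36 probe sets differed by -0.25 (SE 0.25) and -0.38 (SE 0.45), and each was lower in AFO in 3 of 3 pools, as were 7 of the 27 tested probe sets of the 10 genes and 12.6% of all tested probe sets. Without AFO pool 2 the 3 differences were -0.03, -0.01 and 0.13, and relative to the adipocyte markers the main one was 0.027.

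The Cd36 and Vldlr promoters are shown because both genes bring lipid into cells and their pool 2 values lay on opposite sides of the other pools. Each is the 250 bases before the RefSeq start (GRCm38.p6), on the gene's strand. For Vldlr, of 2 starts listed, the one farther upstream is shown. Capitals mark AGGTCA, a core element bound by nuclear receptors such as the PPARs, and the CCAAT box, on either strand.
Cd36 promoter, chr5:17835897-17836146, minus strand: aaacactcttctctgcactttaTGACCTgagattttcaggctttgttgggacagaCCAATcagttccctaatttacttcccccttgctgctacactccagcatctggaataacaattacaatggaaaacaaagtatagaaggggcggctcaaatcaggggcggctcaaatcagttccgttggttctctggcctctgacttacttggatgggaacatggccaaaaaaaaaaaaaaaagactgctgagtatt
Vldlr promoter, chr19:27216234-27216483, plus strand: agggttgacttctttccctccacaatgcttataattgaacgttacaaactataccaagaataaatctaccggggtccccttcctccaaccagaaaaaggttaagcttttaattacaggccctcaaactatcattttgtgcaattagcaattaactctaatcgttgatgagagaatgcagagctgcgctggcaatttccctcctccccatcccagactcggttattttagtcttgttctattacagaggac
The Cd36 window held 1 AGGTCA on the other strand, 228 bases before the start, and 1 CCAAT, 195 bases before it, and the Vldlr window shown held neither. The Vldlr window not shown held 1 CCAAT on the other strand, 78 bases before its start. A pair of AGGNCA copies in the same direction, spaced by 1 base, and TATAAA were absent from both windows. Over all 32851 windows of this length, on both strands, 14.0% held AGGTCA, 33.8% CCAAT, 12.4% TATAAA and 0.338% the spaced pair. Promoter windows were found for 5 of the 10 genes (Cd36, Lmf1, Sel1l, Slc27a1 and Vldlr), and none of their 8 windows held the spaced pair or TATAAA.

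Slc27a1, which carries fatty acids into the cell and is recruited by insulin, had the largest difference among the main probe sets. It read 11.02, 11.04 and 11.37 in control (Entrez gene 26457) and 11.09, 10.53 and 10.64 in AFO pools 1, 2 and 3. The AFO values of pools 2 and 3 lay below all control values, and that of pool 1 lay among them. The difference was -0.39 (SE 0.19, 95% interval from -0.84 to 0.06, limma adjusted p 0.999971), or 0.763 times the control level. The second Slc27a1 probe set read 10.997, 10.92 and 11.20 in control and 11.05, 10.30 and 11.06 in AFO. It differed by -0.23 (SE 0.23), and by -0.043 without both pool 2 arrays, where the main one kept -0.34 (SE 0.21). The probe sets thus shared the low value of AFO pool 2 but not that of AFO pool 3, which was -0.74 on the main and -0.14 on the second, measured against control pool 3. Slc27a1 was the gene of the 10 whose main difference kept its sign under all 19 alternatives, from -0.56 to -0.16, and none of these passed (lowest limma adjusted p 0.922267). Several of the 19 return the same estimate by construction, and the adipocyte centring shift of 0.23 was smaller than this difference. The second probe set did not keep its sign, at 0.018 without AFO pool 2, and was -0.0040 relative to the adipocyte markers.

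Fabp4, the fatty acid binding protein of fat cells, was at the top of the scale. Its main probe set (Entrez gene 11770) read 13.85, 13.83 and 13.85 in control and 13.84, 13.65 and 13.84 in AFO pools 1, 2 and 3, and its rank by brightness was 1 to 3 on every array. The highest value of the whole table was 13.85, so these values say little on whether the transcript was higher or lower. The dimmest of the 4 Fabp4 probe sets, 1425809_at, read 8.37, 7.76 and 8.34 in control and 7.89, 7.51 and 6.74 in AFO. The groups overlapped, and AFO was the lower in 3 of 3 pools, by -0.48, -0.25 and -1.60. Its difference of -0.78 (SE 0.33, 95% interval from -1.55 to -0.0023, limma adjusted p 0.999971) was the largest of the 27 tested. With 1 array left out this difference ran from -1.03 without AFO pool 1 to -0.46 (SE 0.26) without AFO pool 3. Without both pool 2 arrays it was -1.04 (SE 0.34). AFO pool 3 is the array with the highest 3' minus 5' signal, and the part of RNA quality in these values was not tested. The remaining Fabp4 probe sets differed by -0.17 (SE 0.13) and -0.23 (SE 0.29).

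Fabp5, a binding protein of fat cells, macrophages and epithelia, read 11.56, 11.43 and 11.79 in control (Entrez gene 16592) and 11.75, 11.29 and 11.40 in AFO on its main probe set. AFO was the higher in pool 1 and the lower in pools 2 and 3. The difference was -0.12 (SE 0.17, 95% interval from -0.51 to 0.28), and the second probe set gave -0.12 (SE 0.26). The mean of the 10 macrophage markers was 9.34 to 9.85 in control and 9.39 to 9.48 in AFO fat.

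The members' differences varied with the pool. Within pool 1, 8 of the 27 tested probe sets were lower in AFO fat (median 0.06), within pool 2 18 were (median -0.17) and within pool 3 22 were (median -0.28). Over all tested probe sets 43.9%, 52.6% and 60.1% were lower within pools 1, 2 and 3, with medians of 0.03, -0.01 and -0.08. The median share of variation held by pool number was 59.7% for the 27 and 65.7% for all tested probe sets, and that held by genotype was 16.0% and 5.90%. In pool 2, 24 of the 27 were below the mean of pools 1 and 3 in control fat and 18 in AFO fat, beside 61.1% and 57.6% of all, and Vldlr gave the main exception. The adipocyte marker mean was 10.54 in AFO pool 2 and 10.57 in AFO pool 3, the pools where the members were lower, and 10.88 to 11.12 on the other 4 arrays. The part of fat cell content in the members' differences was not tested beyond the values relative to these markers.

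**Figure D3:**
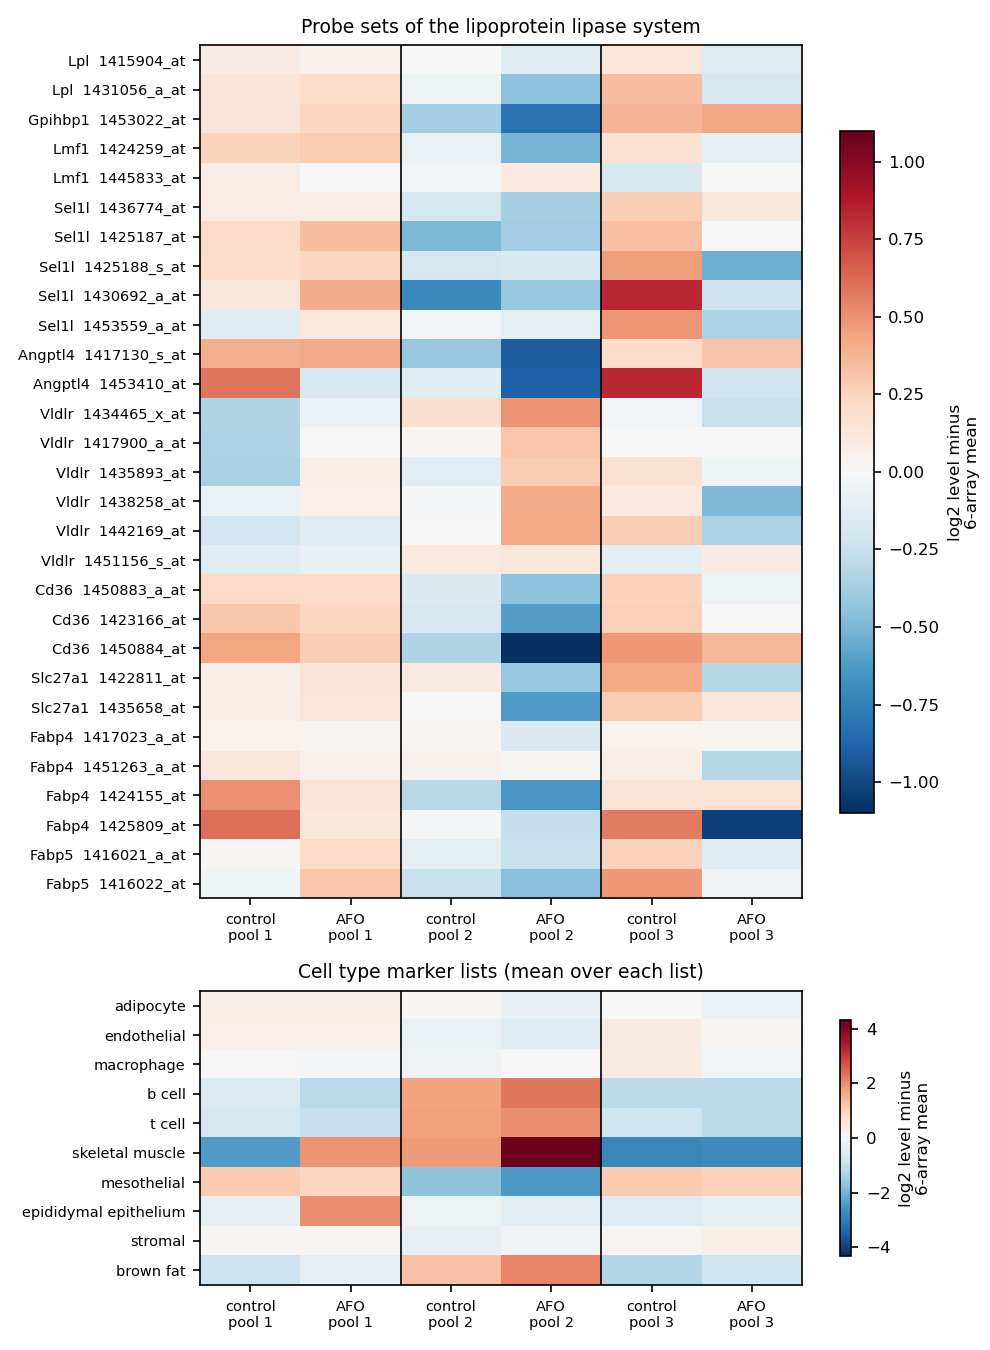
Colour shows each array's log2 level minus the mean of the 6 arrays, for the 29 probe sets (upper panel, scale symmetric about 0) and for the mean of each marker list (lower panel, on its own wider scale). Columns pair control and AFO by pool number. Pool 2 columns are low for Angptl4, Gpihbp1 and Cd36 and high for muscle, brown fat, B cell and T cell markers. The AFO pool 3 column is low for several Sel1l probe sets and for 1425809_at of Fabp4.

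The genes whose profile over the 6 arrays was most like that of Angptl4, by the root mean square difference of centred log2 values, were Creb3l2, a transcription factor of the endoplasmic reticulum membrane (0.028), Myadm, a membrane protein (0.046), Cavin1, a coat protein of caveolae (0.051), Afap1l1, an actin-associated protein (0.051), and Slit3, a secreted guidance protein (0.060). The median over all tested probe sets was 0.49, and Gpihbp1 was the nearest of the other 9 genes at 0.16. For Lpl they were Ss18, a chromatin remodelling subunit (0.015), Sypl, a vesicle membrane protein (0.015), Stx8, a syntaxin (0.024), Ccrl2, a chemerin-binding receptor (0.024), and Dxo, an RNA decapping enzyme (0.025), where the median was 0.22. Among the 10 genes Fabp4 was nearest to Lpl at 0.082, though only at rank 638, and Angptl4 farthest at 0.45. The values were not scaled, so this measure also follows how widely a gene varied. Over the 6 arrays Lpl spanned 0.28, Fabp4 0.20 and Angptl4 1.33. These likenesses describe 6 arrays that share their pool structure.

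Other genes of the pathway were taken from a list of 64, of which 56 were tested, 4 were too dim to test and 4 had no probe set used here. By limma 0 of the 56 passed, in either direction, with or without pool number as a block over all arrays, where 0% of all 13453 tested genes passed in the unpaired fit, and 2 had an unadjusted p under 0.05, beside 1.03% of all. With the block 5 of the 56 had an unadjusted limma p under 0.05, beside 3.37% of all tested probe sets. By their means 36 were lower and 20 higher in AFO fat, with a median of -0.083, where 54.3% of all 13453 tested genes were lower with a median of -0.014. Relative to the adipocyte markers the list's median was 0.15, and without AFO pool 2 it was 0.04. Lipe is both an adipocyte marker and a gene of this list, so that centring is not independent of the list. The groups did not overlap for 2 of the 56 genes, Got2 and Nr3c1, where 3.5% of all tested genes had groups that did not overlap. Got2, the mitochondrial aspartate aminotransferase that is also described as a fatty acid binding protein of the plasma membrane, read 9.06, 8.97 and 8.81 in control and 9.33, 9.73 and 9.36 in AFO pools 1, 2 and 3. Its difference was 0.53 (SE 0.16, 95% interval from 0.14 to 0.91, limma adjusted p 0.999971). Nr3c1, the glucocorticoid receptor, differed by -0.15 (SE 0.11).

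By role, the 5 apolipoprotein genes were all lower by their means and within pools 2 and 3, and all higher within pool 1. Apoc2, the cofactor of the lipase, differed by -0.27 (SE 0.39). Of 2 other inhibitors, Angptl6 differed by -0.052 (SE 0.16). Sort1, a sorting receptor of the lipase, differed by -0.24 (SE 0.15), the endoplasmic reticulum protein Derl1 by -0.21 (SE 0.19), the remnant receptor Lrp1 by -0.16 (SE 0.30) and the VEGF receptor Flt1 by -0.25 (SE 0.18). In the role of Sort1, lipase fate and cleavage, 4 of 7 genes were higher and 3 lower, with a median of 0.021. Among them Sorl1, chosen after its values were seen, was higher in AFO in 3 of 3 pools. The Sorl1 difference was 0.56 (SE 0.56, limma adjusted p 0.999971, and 0.996698 with pool number as a block). Lipe, the hormone-sensitive lipase that acts inside the cell, differed by -0.34 (SE 0.23). Fabp3, the binding protein of heart and skeletal muscle, read 5.47, 6.43 and 5.63 in control and 6.90, 9.85 and 5.44 in AFO pools 1, 2 and 3, a difference of 1.55 (SE 1.03). The mean of the muscle markers was 9.71 and 11.96 in AFO pools 1 and 2, 9.57 in control pool 2 and at most 5.33 on the other arrays. That of the 4 tested brown fat markers was 7.36 in control pool 2, 8.22 in AFO pool 2 and 4.84 to 5.74 on the other arrays. Of these 4, 0 were lower in AFO by their means, with a median difference of 0.59. Slc27a2, a fatty acid transporter and acyl-CoA synthetase of kidney and liver that was chosen after its values were seen, read 5.20, 6.62 and 4.91 in control and 7.06, 7.44 and 6.09 in AFO. It was the higher in AFO in 3 of 3 pools, by 1.29 on average (SE 0.52, limma adjusted p 0.999971, and 0.996698 with pool number as a block). Without both pool 2 arrays the Slc27a2 difference was 1.52, with a limma adjusted p of 0.196 (SE 0.31), and of 0.0286 with the block as well (SE 0.23). In that last fit it was the 1 gene of the 56 that passed, beside 0.549% of all tested probe sets. Only pools 1 and 3 were left there, so that fit rested largely on the spread that empirical Bayes borrows across probe sets. The 3 tested epididymal epithelium markers had a mean of 7.61 in AFO pool 1 and 5.04 to 5.38 on the other 5 arrays. The parts of muscle, brown fat and epithelium in these values were not tested.

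**Figure D4:**
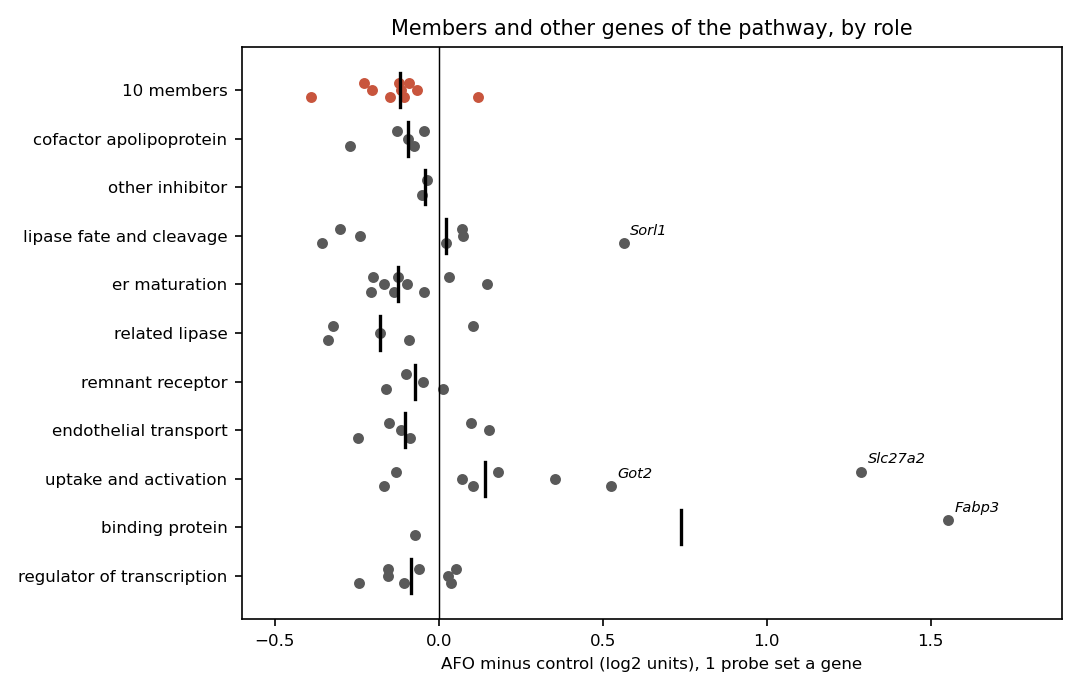
AFO minus control in log2 units for the main probe set of the 10 genes (red) and of 56 other tested genes of the pathway (grey) by role. Vertical bars are medians and genes beyond 0.5 in size are named. The medians lie below 0 for all roles except lipase fate and cleavage, uptake and activation, and binding protein, and Fabp3 and Slc27a2 lie farthest out.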

How the data were processed

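RNA from 6 pools of epididymal fat was hybridised to Affymetrix arrays, 3 control and 3 AFO. Log2 values were deposited, computed by RMA (background correction, quantile normalisation, probe summary) in Affymetrix Expression Console 1.4, per the submitters' processing notes. Their genome build is not given in the sources used here. Array medians ran from 5.35 to 5.43.

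Genes came from the platform annotation, and all 10 member gene IDs were found in the RefSeq table (GRCm38.p6). Probe sets with 1 gene symbol and a mean at or above the 40th percentile (4.88) were tested by limma 3.58.1 in R 4.3.3 (empirical Bayes with trend, unpaired, Benjamini-Hochberg over 23142 probe sets, called at adjusted p under 0.05). The fit was tested on simulated data with independent noise on each array and no pool effect. That simulation does not cover the pool structure of these arrays. The members and gene lists were chosen with earlier results of these data known. All probe sets of the 10 genes are reported; from each pathway role the gene with the smallest unadjusted p is named, and for Angptl4 and Lpl the 5 genes nearest in profile.

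The same pool numbers are used in both groups, and the labels do not say what an equal number means. Deviations from the group means correlated at 0.563, 0.769 and 0.457 across probe sets for pools 1, 2 and 3, above the 0.1 asked of a pairing that the labels do not explain. The crossed pairs control 1 and AFO 3 (0.383), and control 3 and AFO 1 (0.390), also lay above it. In the unpaired fits the p-values measure the spread between pools of a group. With the block they measure the spread left after pool number is taken out. Alternatives changed the filter, normalisation, probe set choice, empirical Bayes options, array weights, the block, arrays left out and the threshold.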

Additional observations from a re-analysis of the deposited data

How the results depend on the processing

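No setting called a member probe set, and no member call was gained at an adjusted p under 0.10, nor with any array left out (0 to 0). Over all probe sets the limma calls were 0, and became 1 with adipocyte marker centring, 2 with pool number as a replicate block, 86 when both arrays of pool 2 were left out and 127 when the block was added to that, and 0 to 21 with 1 array left out, the 21 coming without AFO pool 2. The count of member probe sets lower in AFO, whose alternatives were chosen after seeing the data, went from 23 to 7 with adipocyte and 11 with endothelial marker centring, and to 15 to 23 with 1 array left out (15 without AFO pool 2, 16 without control pool 3). The shares of all probe sets lower in AFO in those 4 settings were 9.28%, 14.1%, 49.5% and 48.7%, against 58% before. The pathway median went from -0.083 to 0.15 with adipocyte marker centring and to -0.15 to 0.044 with 1 array left out. Of 191 comparisons of the 10 main differences with an alternative, 22 changed sign. Many of the 191 could not change sign. Settings that alter only the filter, the empirical Bayes options or the block return the same estimate, as does keeping the brightest probe set of each gene. Adipocyte marker centring, which raises all differences, turned Lpl (0.080), Gpihbp1 (0.14), Lmf1 (0.0012), Sel1l (0.12), Angptl4 (0.11), Cd36 (0.027), Fabp4 (0.16) and Fabp5 (0.11). Gpihbp1 also turned with array weights (0.027, from an estimate that stopped short of its convergence tolerance), without both pool 2 arrays (0.078, with and without the block) and with endothelial centring (0.094), and Angptl4 turned without both pool 2 arrays (0.066, with and without the block). With 1 array left out Angptl4 ran from -0.36 to 0.30, Gpihbp1 from -0.33 to 0.29, Sel1l from -0.23 to 0.048 and Vldlr from -0.10 to 0.27. Without a change of sign, Lmf1 ran from -0.42 to -0.03, Cd36 from -0.36 to -0.026, Fabp5 from -0.25 to -0.017 and Fabp4 from -0.10 to -0.0032, each nearest 0 without AFO pool 2 or, for Fabp5, control pool 3. The causes were not tested, apart from the shift that centring makes by construction. The block changed no member call. Probe sets near the bottom and the top of the scale are the least informative, since dim signals are drawn together and the brightest are held level.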
